A study of Mus musculus with 7 samples.

Results

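The regulators of G-protein signalling (RGS) described here are 10 genes, *Rgs2*, *Rgs4*, *Rgs7*, *Rgs8*, *Rgs10*, *Rgs12*, *Rgs14*, *Rgs16*, *Rgs17* and *Rgs20*, out of the 47729 genes whose counts were deposited. They were chosen by symbol, and each symbol matched 1 Ensembl gene. RNA was sequenced from the forebrain of F1(C57BL/6 X 129Sv) mice at postnatal day 15. The control group held 4 samples of *Lhx6*+/- mice, which carry 1 copy of the null allele *Lhx6*tm2Vpa, and the mutant group held 3 samples of *Lhx6*-/- mice, which carry it on both chromosomes. *Lhx6* encodes a transcription factor of interneurons born in the medial ganglionic eminence (MGE). A sample was a pool of 2 animals, and no wild-type sample entered the comparison. No Cre driver limits the loss of *Lhx6* to a chosen cell type, and whole forebrain was taken, so that a change in the RNA made per cell and a change in the number of cells of a type cannot be told apart. The 10 RGS genes were compared between genotypes to ask how a brain that lacks *Lhx6* transcribes the brakes on its G-protein signals.

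G proteins carry signals from receptors for neurotransmitters, peptides and hormones into the cell, and they stay active while their alpha subunit holds GTP. RGS proteins bind the active alpha subunit through a conserved RGS domain and speed up the hydrolysis of GTP, which ends the signal. In the brain they set how fast and how long receptors for dopamine, acetylcholine, glutamate, GABA and opioids act. The family falls into subfamilies by sequence. R4 proteins (*Rgs2*, *Rgs4*, *Rgs8*, *Rgs16*) are small and hold little beside the RGS domain, R7 proteins (*Rgs7*) work as a complex with the beta subunit Gnb5, R12 proteins (*Rgs10*, *Rgs12*, *Rgs14*) include large scaffolds, and RZ proteins (*Rgs17*, *Rgs20*) act on Gz and Gi.

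Library totals ran from 32556304 to 38069151 expected counts, and a count of 0 in these libraries allowed up to 3 counts, or 0.0788 to 0.0921 CPM (counts scaled to library size). This limit covers counting error only. Each column is known by genotype and number (controls 2, 3, 10 and 11, mutants 5, 12 and 13), so the RNA integrity numbers (9 to 10) and sexes that the labels give per pool could not be assigned to libraries. Values below are normalized counts, listed in the order of these numbers. The targeted gene *Lhx6* read 615, 522, 476 and 522 in controls against 70.9, 76.6 and 70.1 in mutants. Libraries 2, 3 and 5 stood apart from libraries 10 to 13 on the first principal component (39.6% of the variance), and both runs of numbers hold both genotypes. Among markers of other cells, 3 of 6 oligodendrocyte genes fell (summed CPM 6570 to 8460 in controls, 4710 to 5790 in mutants). Of 6 astrocyte genes, *Gfap* rose. The astrocyte sum (4980 to 7560 and 8370 to 9860) came mostly from *Slc1a2*, which was not called (log2 fold change 0.44, adjusted p = 0.2, edgeR). Of 6 MGE interneuron genes, 4 fell (sum 414 to 458 and 208 to 241): the targeted gene *Lhx6* itself, *Sst*, *Pvalb* and *Nxph1*. Thalamic markers summed to 118 to 158 and 119 to 129 CPM and cerebellar ones to 30 to 44 and 26.7 to 33.4, and the cerebellar granule cell marker *Gabra6* was at 0 in every library but control library 3, where it had 12.1. The part of these cell types in the RGS results was not tested.

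Of the 10 RGS genes, *Rgs8* and *Rgs2* rose in mutants and none fell. *Rgs8* rose 1.87-fold and *Rgs2* 1.67-fold. *Rgs4*, the most abundant RGS gene of these forebrains, lay 1.44-fold higher in the fit without passing the threshold, and *Rgs7* 1.22-fold. The other 6, *Rgs10*, *Rgs12*, *Rgs14*, *Rgs16*, *Rgs17* and *Rgs20*, had log2 fold changes between -0.06 and 0.26. All 10 passed the filter on low counts and were tested with edgeR's quasi-likelihood test, with p-values adjusted over 19684 genes by the Benjamini-Hochberg method. Of all tested genes, 4.85% were called at an adjusted p of 0.05 or less, 2.97% higher and 1.87% lower in mutants, against 2 of 10 RGS genes. The median log2 fold change was 0.20 over the 10 genes and -0.013 over all tested genes. Of the 10, 9 were above 0, as were 9404 of the 19684 tested genes. *Rgs16* and *Rgs20*, at 0.07 and 0.02, turned negative in some fits with 1 library left out. By DESeq2 3 of the 10 rose, against 8.80% of all genes called in either direction, and by limma-voom 2, against 4.89%; none fell by either. With the run of numbers in the edgeR fit 4 rose, against 11.2% of all genes called, and in libraries 10 to 13 alone 4 rose, against 10.3%. At an unadjusted p of 0.05 or less edgeR gave 4, all higher, and 18.2% of all tested genes passed the same limit. In 4 of the 10 (*Rgs2*, *Rgs4*, *Rgs7*, *Rgs8*) every mutant library lay above every control library; a separation in either direction held for 19.7% of all tested genes.

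**Figure D1:**
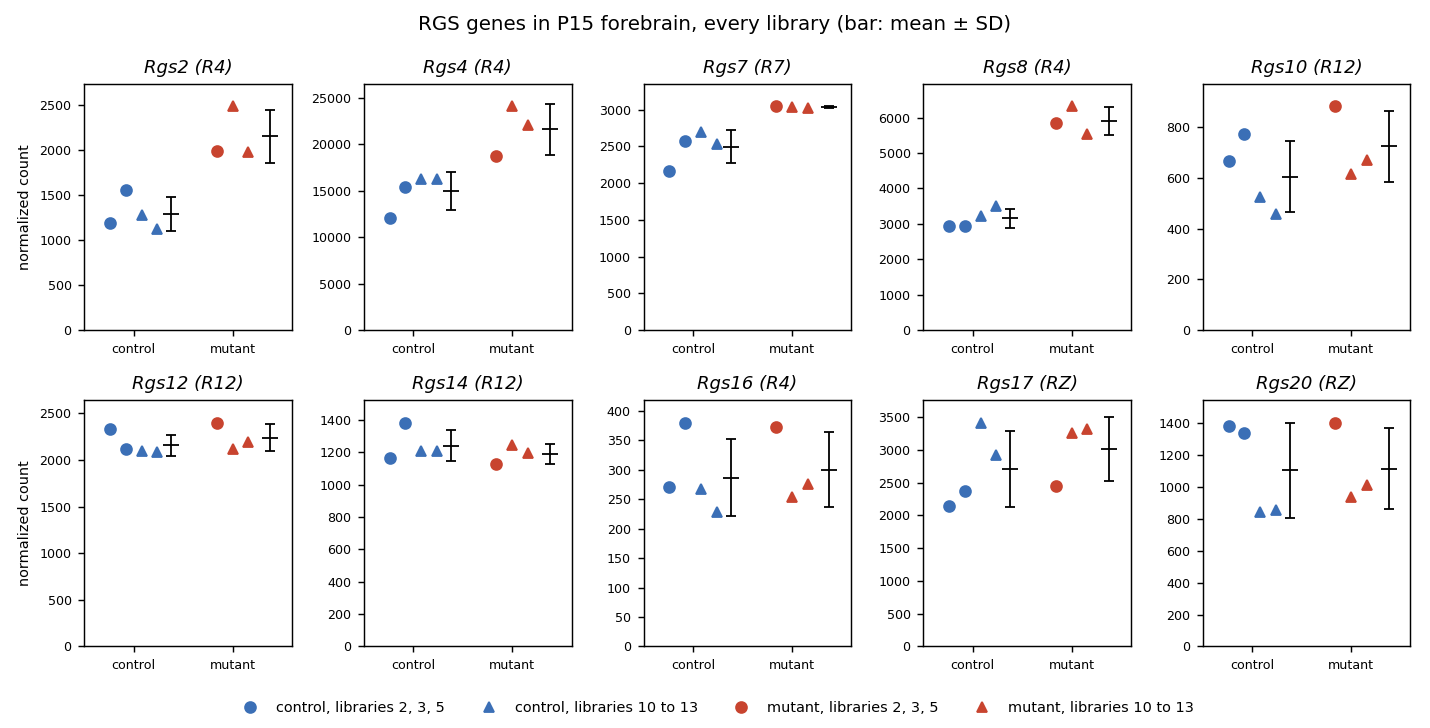
Normalized counts of the 10 RGS genes in each of the 7 libraries, 1 panel a gene with its own axis from 0; circles are libraries 2, 3 and 5, triangles libraries 10 to 13, and the black bars give mean ± SD for 4 control and 3 mutant libraries. The 3 mutant libraries of *Rgs8* lie between 5550 and 6330, above all control libraries, whereas *Rgs17* and *Rgs20* separate circles from triangles in place of genotypes.

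Promoters are shown first for the R4 genes, because that subfamily holds both called genes and because *Rgs8* and *Rgs16* are near neighbours of which the first was called and the second was not. RefSeq windows of GRCm38.p6, a patch release of the build of the deposited annotation, were found for 8 of the 10 genes (not for *Rgs14* and *Rgs20*), with 11 windows in all. The 250 bases before the start site lie at chr1:144004150-144004399 (minus strand) for *Rgs2*, chr1:169747643-169747892 (minus strand) for *Rgs4*, chr1:153652787-153653036 (plus strand, the first of 3 starts) for *Rgs8* and chr1:153740103-153740352 (plus strand) for *Rgs16*. They read 5′ to 3′ in the direction of transcription, and capitals mark TGACG or its reverse complement CGTCA, the core of the cyclic AMP response element (CRE) that CREB factors bind.
*Rgs2*: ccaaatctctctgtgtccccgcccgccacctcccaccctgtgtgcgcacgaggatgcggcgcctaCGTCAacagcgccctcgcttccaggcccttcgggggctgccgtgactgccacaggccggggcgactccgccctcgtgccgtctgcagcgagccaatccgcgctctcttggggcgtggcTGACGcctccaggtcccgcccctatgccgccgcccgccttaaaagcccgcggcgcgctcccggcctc
*Rgs4*: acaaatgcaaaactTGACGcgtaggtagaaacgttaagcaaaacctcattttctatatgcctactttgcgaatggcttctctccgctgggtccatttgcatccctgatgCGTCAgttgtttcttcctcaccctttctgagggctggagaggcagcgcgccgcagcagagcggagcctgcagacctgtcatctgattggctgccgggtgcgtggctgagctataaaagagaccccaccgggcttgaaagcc
*Rgs8*: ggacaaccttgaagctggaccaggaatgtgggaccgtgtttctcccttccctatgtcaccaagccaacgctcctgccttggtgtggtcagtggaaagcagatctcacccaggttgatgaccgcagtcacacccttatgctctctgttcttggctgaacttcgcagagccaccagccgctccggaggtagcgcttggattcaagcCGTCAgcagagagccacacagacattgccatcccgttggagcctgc
*Rgs16*: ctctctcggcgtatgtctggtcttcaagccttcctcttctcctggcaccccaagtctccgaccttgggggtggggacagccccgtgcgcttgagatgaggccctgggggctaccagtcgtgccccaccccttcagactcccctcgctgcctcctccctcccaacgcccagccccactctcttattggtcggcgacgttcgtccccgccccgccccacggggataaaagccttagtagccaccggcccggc

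Both *Rgs2* and *Rgs4* hold 2 CRE cores in this window, starting 185 and 67 bases before the start site in *Rgs2* and 236 and 141 bases before it in *Rgs4*. *Rgs8* holds 1, starting 46 bases before the first start site, and none in its other windows. The *Rgs16* window holds none. Beyond the R4 genes, 1 window of *Rgs12* holds a CRE core, so that 4 of 11 windows do, against 17.8% of 32851 promoter windows of the same length. The full CRE, TGACGTCA, stands in none of the 11 and in 1.55% of all windows. *Rgs4* also has a TATAAA, starting 31 bases before its start site, as 12.4% of all windows have somewhere. The AP-1 motif TGANTCA was found in 1 window each of *Rgs12* and *Rgs17* and in 6.75% of all windows. All motifs were searched on both strands, and the full CRE contains the CRE core. A match describes these letters and does not show that a factor binds.

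*Rgs8* encodes an R4 protein that acts on Gi and Go and is best known for speeding the opening and closing of G-protein-gated potassium channels. It lies on chromosome 1 (153653025 to 153700323, plus strand, ENSMUSG00000042671). Controls read 2942, 2950, 3230 and 3502, and mutants read 5856, 6330 and 5550. No mutant library came near the highest control. From 3156 ± 267 to 5912 ± 393 (SD, n = 4 and 3 pools) the log2 fold change was 0.91, with SE 0.0907 and an adjusted p of 0.00132 in edgeR. Within libraries 2, 3 and 5 the log2 ratio of means was 0.99 and within libraries 10 to 13 it was 0.82. *Rgs8* kept its call in all 16 alternatives tried, with log2 fold changes from 0.83 to 0.96. Exons of another gene on the other strand cover 0.726% of its exon length. Across the 10 genes, at most 1.97% of 36-base words (in *Rgs14*) were shared with any other gene.

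*Rgs2* encodes an R4 protein that prefers Gq and is a textbook immediate early gene, induced in neurons by activity and by cyclic AMP. It lies on chromosome 1 (143999338 to 144004161, minus strand, ENSMUSG00000026360). Controls read 1189, 1554, 1285 and 1120, and mutants read 1990, 2493 and 1983. All mutant libraries were above control library 3, the highest control, and mutant library 12 was the highest of all. Means of 1287 ± 190 and 2155 ± 293 (SD, n = 4 and 3 pools) gave a difference of 0.74 on the log2 scale, with SE 0.131 and an adjusted p of 0.0156 in edgeR. The call was lost without mutant library 12 (log2 fold change 0.63, adjusted p = 0.0659, edgeR) and without mutant library 13 (0.80, adjusted p = 0.0525, edgeR); over the 16 alternatives the adjusted p ran from 3.07e-05 to 0.0659. By run, the log2 ratio was 0.54 in libraries 2, 3 and 5 and 0.90 in libraries 10 to 13.

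*Rgs4* encodes an R4 protein abundant in cortical neurons that brakes Gi, Go and Gq, and its protein is removed through the N-degron pathway. On chromosome 1 (169741477 to 169747642, minus strand, ENSMUSG00000038530) it gave 12017, 15435, 16247 and 16233 normalized counts in controls. In mutant libraries 5, 12 and 13 it gave 18703, 24123 and 22050. The genotypes did not overlap, but control library 2 and mutant library 5 were each the lowest of their group by a wide step, and both belong to the lower run of numbers. The means were 14983 ± 2014 and 21625 ± 2735 (SD, n = 4 and 3 pools), and the log2 fold change of 0.53 (SE 0.132) had an adjusted p of 0.0594 in edgeR, just above the threshold. Its adjusted p was 0.0126 in edgeR when the run of numbers (2 to 5 or 10 to 13) entered the fit as a term and 0.00392 in DESeq2, and 5 of 16 alternatives called it higher, with adjusted p from 0.00392 to 0.213 over all 16. By run, the log2 ratio was 0.45 (2, 3 and 5) and 0.51 (10 to 13).

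*Rgs16*, the last R4 gene of the list, encodes a protein that acts on Gi and Gq. It lies on chromosome 1 (153740349 to 153745468, plus strand, ENSMUSG00000026475). Its counts were the lowest of the 10, at 270, 380, 267 and 229 in controls and 373, 253 and 275 in mutants. Control library 3 and mutant library 5 were the high ones, and the genotypes overlapped. The log2 fold change was 0.07 (95% interval -0.39 to 0.53, adjusted p = 0.912, edgeR). It turned to -0.03 without control library 11 and to -0.11 without mutant library 5. Exons on the other strand cover 10.1% of its exon length (*Gm28513*), and since the strand setting of the counting is not given in the sources used here, that share of its counts is less certain. The same holds for 5.65% of the exon length of *Rgs12* (*Gm43791*) and 5.94% of that of *Rgs20* (*Atp6v1h* and *Gm17101*).

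*Rgs16* begins 40.0 kb past the end of *Rgs8* on the same strand. The ratio of *Rgs8* to *Rgs16* counts was 10.9, 7.77, 12.1 and 15.3 in controls and 15.7, 25.1 and 20.2 in mutants. All mutant ratios were above all control ratios, the nearest by a narrow step. This pair was looked at with the calls of both genes known, and the values are a description. An exact two-sided test over 35 arrangements gave p = 0.0571, the smallest it can give, so it cannot decide. On chromosome 1, 2 other close pairs had both genes tested, and pairs with the untested *Rgs1*, *Rgs18* or *Rgs21* were left out. The ratio of *Rgs4* to *Rgs5* overlapped between genotypes (2.37 to 3.35 in controls, 2.61 to 4.16 in mutants). The ratio of *Rgs13* to *Rgs2* did not (0.00711 to 0.0203 in controls, 0.0255 to 0.0559 in mutants).

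*Rgs7* encodes the R7 protein that works on Go with Gnb5 and, in neurons, is anchored to the membrane by Rgs7bp. On chromosome 1 (175059087 to 175492500, minus strand, ENSMUSG00000026527) it had 2170, 2581, 2700 and 2537 normalized counts in controls, and 3051, 3037 and 3022 in mutants. The mutants were nearly equal and above every control. The difference of 0.28 on the log2 scale had SE 0.086 and an adjusted p of 0.113 in edgeR, and it passed the threshold in 0 of 16 alternatives, with adjusted p from 0.0524 to 0.307. Its partner *Gnb5* had 2226, 2335, 2335 and 2365 normalized counts in controls and 1905, 2108 and 2058 in mutants. Every mutant library lay under every control, at -0.19 on the log2 scale with SE 0.0699 and an adjusted p of 0.182 in edgeR. *Rgs7bp* ranged from 5317 to 8309 in controls and from 5232 to 7765 in mutants (log2 fold change -0.04, adjusted p = 0.946, edgeR).

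*Rgs10* encodes a small R12 protein acting on Gi and is known from microglia as well as neurons. On chromosome 7 (128373621 to 128418758, minus strand, ENSMUSG00000030844) it had 665, 772, 525 and 458 normalized counts in controls and 884, 617 and 672 in mutants. The genotypes overlapped over all libraries but not within either run of numbers. Over all libraries the log2 fold change was 0.26 (95% interval -0.19 to 0.71, adjusted p = 0.569, edgeR). With the run as a covariate it was 0.35 (adjusted p = 0.0405, edgeR), and in libraries 10 to 13 alone 0.40 (adjusted p = 0.0366, edgeR). Beside it, the 8 microglia markers had log2 fold changes from -0.30 to 0.03 and summed to 399 to 410 CPM in controls and 339 to 393 in mutants. Their part in the values of *Rgs10* was not tested.

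*Rgs12* encodes a large R12 scaffold with Ras-binding and GoLoco domains. On chromosome 5 (34949445 to 35039644, plus strand, ENSMUSG00000029101) its normalized counts were 2329, 2112, 2100 and 2084 in controls and 2400, 2119 and 2193 in mutants. Its controls varied least of the 10 genes (coefficient of variation 5.38%), and the genotypes overlapped. The log2 fold change was 0.05 (95% interval -0.12 to 0.23, adjusted p = 0.804, edgeR). *Rgs14* encodes the R12 relative known for its place in hippocampal CA2 neurons, where it limits synaptic plasticity. On chromosome 13 (55369732 to 55384687, plus strand, ENSMUSG00000052087) it had 1166, 1383, 1205 and 1208 counts in controls and 1126, 1247 and 1194 in mutants. Its log2 fold change, -0.06, was the negative one of the 10 (95% interval -0.26 to 0.13, adjusted p = 0.791, edgeR), and it was 0.03 in libraries 10 to 13 alone. Beside it, 1 of 5 CA2 markers, *Cacng5*, rose (2.29-fold, adjusted p = 0.00128, edgeR). Without a call, *Necab2*, *Map3k15* and *Pcp4* lay at 0.229, 0.775 and 0.298 on the log2 scale and *Amigo2* at -0.17. Every mutant library was above every control for *Cacng5*, *Necab2* and *Map3k15*, and below every control for *Amigo2*. The 5 summed to 243 to 320 CPM in controls and 321 to 352 in mutants, most of it from *Pcp4*. The part of CA2 cells in the values of *Rgs14* was not tested.

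*Rgs17* and *Rgs20* encode RZ proteins, which carry a cysteine string and act on Gz and Gi. Their counts followed the run of library numbers. *Rgs17* (chromosome 10, 5825663 to 5922400, minus strand, ENSMUSG00000019775) had 2137, 2366, 3418 and 2929 counts in controls and 2448, 3260 and 3324 in mutants. Libraries 2, 3 and 5 were all below libraries 10 to 13, whatever the genotype. *Rgs20* (chromosome 1, 4909576 to 5070285, minus strand, ENSMUSG00000002459) had 1383, 1339, 840 and 852 in controls and 1402, 933 and 1008 in mutants. Here libraries 2, 3 and 5 were all above the rest. Such a split by run held for these 2 of the 10 genes and for 23.0% of all tested genes. Between genotypes the log2 fold changes were 0.15 (95% interval -0.25 to 0.55, adjusted p = 0.738, edgeR) for *Rgs17* and 0.02 (-0.49 to 0.52, adjusted p = 0.984, edgeR) for *Rgs20*. Within libraries 10 to 13 the log2 ratios were 0.05 and 0.20.

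**Figure D2:**
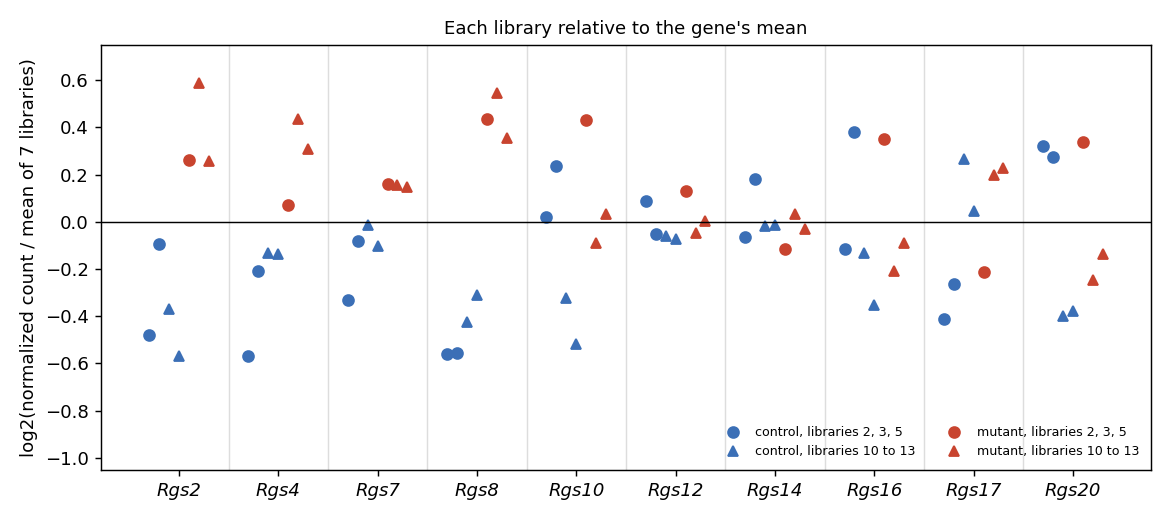
Log2 of each library's normalized count over the mean of the 7 libraries, for the 10 RGS genes; blue is control, red mutant, circles libraries 2, 3 and 5, triangles libraries 10 to 13. Colours separate in *Rgs2*, *Rgs4*, *Rgs7* and *Rgs8*, and shapes separate in *Rgs17* and *Rgs20*.

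Levels were compared between genes as CPM per kilobase of exon. *Rgs4* stood far above the others, at 136 ± 18.2 and 196 ± 24.8 (controls and mutants, SD over 4 and 3 pools). It made up 48.0% of the summed per-length level of 21 RGS genes in controls and 52.6% in mutants. Among the 10, *Rgs14* (14.0 ± 1.09), *Rgs7* (11.6 ± 1.06), *Rgs2* (9.96 ± 1.47), *Rgs10* (9.92 ± 2.31), *Rgs8* (9.19 ± 0.776) and *Rgs17* (9.17 ± 1.95) came next in controls. From *Rgs2* down to *Rgs17* each gene differed from the next by less than the SD of either, so their order is not resolved. *Rgs12* (7.32 ± 0.394) and *Rgs20* (7.30 ± 1.97) also lay within their SD, and *Rgs16* was lowest at 3.43 ± 0.78. In mutants *Rgs8* reached 17.2 ± 1.15 and *Rgs2* 16.7 ± 2.27, within an SD of each other and above *Rgs7* (14.2 ± 0.0667) and *Rgs14* (13.4 ± 0.687). The per-length level divides by all annotated exon bases, so a gene that uses only part of them reads lower than it is; *Rgs8* has the most of the 10, 9640 bases.

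**Figure D3:**
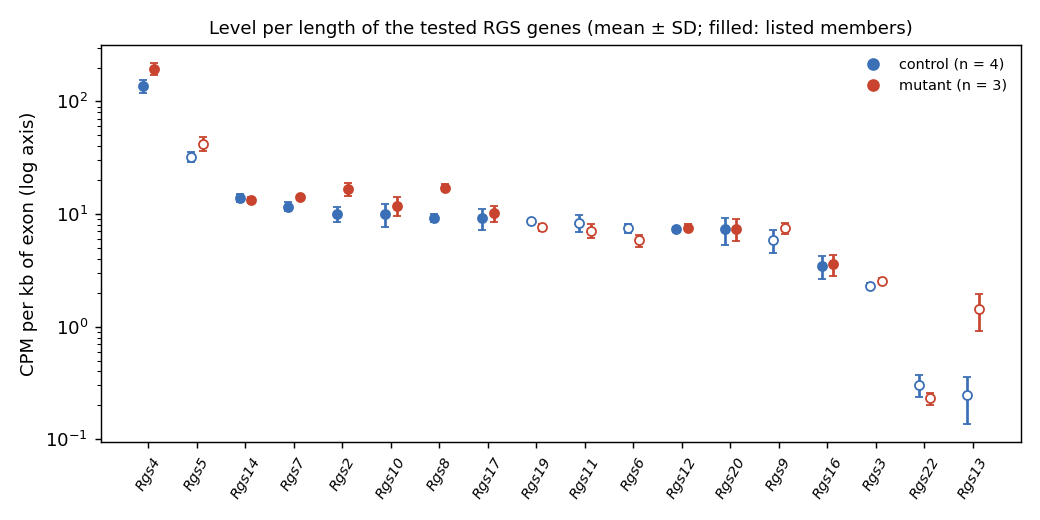
Level per length (CPM per kb of exon, log axis) of the 18 tested RGS genes, mean ± SD of 4 control (blue) and 3 mutant (red) libraries, ordered by the control level; filled points are the 10 listed genes. *Rgs4* lies highest, at 136 in controls and 196 in mutants, and *Rgs8* and *Rgs2* rise above *Rgs14* and *Rgs7* in mutants.

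The remaining 11 RGS genes were examined as a family. *Rgs1*, *Rgs18* and *Rgs21* did not pass the filter, with at most 8 raw counts in any library. Of the 8 tested, *Rgs13* rose and none fell in edgeR (3 at an unadjusted p of 0.05 or less, a limit that 18.2% of all genes passed, median log2 fold change -0.02). *Rgs13*, an R4 gene known from immune cells, lies 134 kb from *Rgs2* on chromosome 1 and had few reads. Its normalized counts were 24.1, 11, 10.6 and 12.2 in controls and 50.8, 89.0 and 111 in mutants. The log2 fold change of 2.53 had SE 0.376 and an adjusted p of 0.00772 in edgeR, and the call held in all 16 alternatives. By run, its log2 ratio was 1.53 (2, 3 and 5) and 3.13 (10 to 13). *Rgs5*, a pericyte gene that lies 45.7 kb from *Rgs4*, had 4857 to 6011 counts in controls and 5796 to 7581 in mutants (log2 fold change 0.40, adjusted p = 0.109, edgeR). *Rgs6*, a relative of *Rgs7*, had 2385 to 2937 and 1906 to 2382 (-0.35, adjusted p = 0.111, edgeR). Both were called by DESeq2 and with the run as a covariate, and they are named here, with *Rgs9*, after their values were seen. DESeq2 gave 3 calls among the 8 genes and limma-voom 1. Of all tested genes, 4.85% were called in edgeR, 8.80% by DESeq2 and 4.89% by limma-voom. Beside *Rgs5*, 8 vascular markers had log2 fold changes from -0.04 to 0.46, with sums of 230 to 261 CPM in controls and 278 to 317 in mutants. *Rgs9*, the RGS gene of striatal projection neurons, had 1029 to 1762 counts in controls and 1499 to 1841 in mutants (0.36, adjusted p = 0.318, edgeR), beside striatal marker sums of 324 to 493 and 475 to 696 CPM, among which *Penk* rose. The part of either cell type was not tested.

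**Figure D4:**
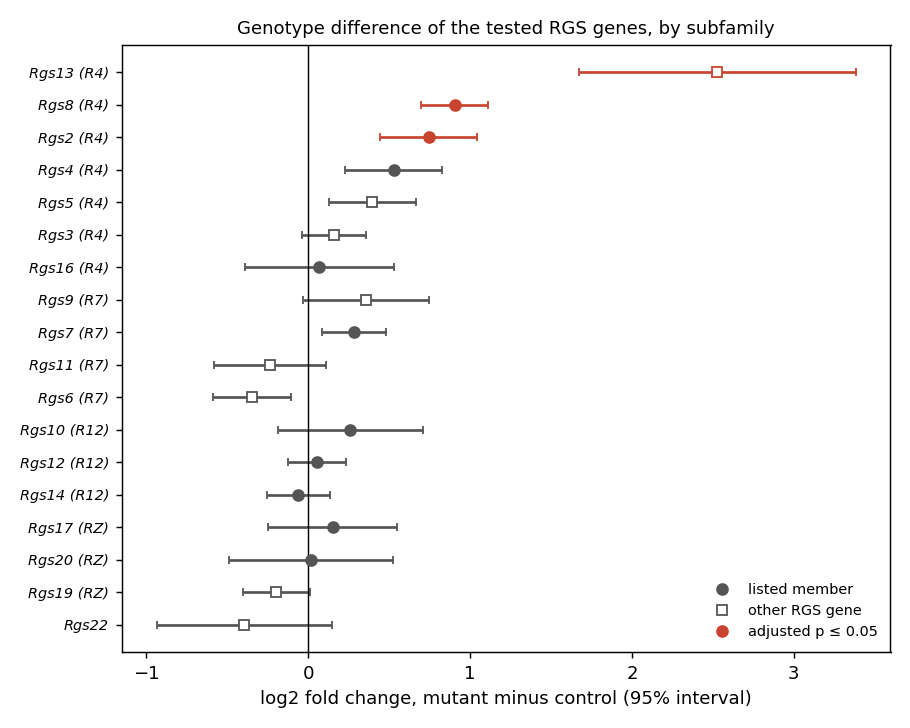
Log2 fold change (mutant minus control) with its 95% interval before adjustment for the 18 tested RGS genes, grouped by subfamily; filled circles are the 10 listed genes, open squares the others, and red marks an adjusted p of 0.05 or less. The 3 called genes, *Rgs13*, *Rgs8* and *Rgs2*, are all of the R4 subfamily, as 7 of the 18 tested genes are.

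On chromosome 1 lie 11 of the 21 RGS genes, among them *Rgs2*, *Rgs8* and *Rgs13*, and 6 of the 10 described here. The other tested RGS genes on this chromosome, *Rgs4*, *Rgs5*, *Rgs7*, *Rgs16* and *Rgs20*, were not called in edgeR. Their log2 fold changes were 0.53, 0.40, 0.28, 0.07 and 0.02. The 4 of the 10 genes with every mutant library above every control (*Rgs2*, *Rgs4*, *Rgs7* and *Rgs8*) all lie on it, while *Rgs16* and *Rgs20* overlapped.

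The G proteins on which RGS proteins act, and their effectors, were read from lists of other genes in the pathway. Unadjusted counts below stand against the 18.2% of all tested genes at that limit. Calls stand against 4.85% of all tested genes in edgeR, 8.80% in DESeq2 and 4.89% in limma-voom. Of 13 tested alpha subunits none was called in edgeR (1 at an unadjusted p of 0.05 or less, 1 by DESeq2 and 0 by limma-voom). The most abundant ones per length, *Gnao1* and *Gnas*, had log2 fold changes of -0.05 and 0.08. *Gnaz*, the partner of RZ proteins, had -0.10 and *Gnaq*, the target of *Rgs2*, -0.11 (adjusted p = 0.693 and 0.497, edgeR). The alpha subunits, *Rasd1*, *Plcb3*, *Plcb4* and the other channel subunits are named after their values were seen. *Gna13* was the gene DESeq2 called (0.36, adjusted p = 0.0529 in edgeR and 0.00339 in DESeq2). Of 13 tested beta and gamma subunits none was called (2 at an unadjusted p of 0.05 or less, 0 by DESeq2 and by limma-voom). Of 9 genes that bind or degrade RGS proteins, none was called (3 at an unadjusted p of 0.05 or less, 0 by DESeq2 and by limma-voom), and of 8 tested GoLoco proteins and other activators none (1 unadjusted, 1 by DESeq2, *Rasd1*, 0 by limma-voom). Among 16 effectors, *Kcnj9* was the one called in edgeR, DESeq2 and limma-voom. *Plcb4*, a phospholipase C gene, was also called lower with the run of numbers in the fit and in libraries 10 to 13 alone, where *Plcb3* was called higher. *Kcnj9*, the gene of the G-protein-gated potassium channel subunit GIRK3, had 5600, 5400, 4954 and 5227 normalized counts in controls and 2604, 2780 and 2498 in mutants. It fell by 1.01 on the log2 scale (SE 0.0802), with an adjusted p of 0.000581 in edgeR, and kept this call in all 16 alternatives. The other subunit genes *Kcnj3*, *Kcnj5* and *Kcnj6* had log2 fold changes of -0.21, -0.55 and 0.16 (adjusted p = 0.339, 0.357 and 0.788, edgeR).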

How the data were processed

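RNA of 7 forebrain pools was read as 36 bp single ends. The authors trimmed reads with cutadapt 1.9.1, aligned them to the Ensembl release 84 (GRCm38) transcriptome with Bowtie2 2.2.9 and deposited RSEM 1.2.31 expected counts per gene, unscaled (versions from the submitters' processing notes). RSEM divides reads that match several genes, so close copies are less certain. Symbols came from the deposited DESeq2 table, whose own comparison (fold changes and p-values) was not used, and positions from the deposited exon annotation. No per-sample column was left out (0).

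Expected counts were rounded. A gene was kept if 3 or more libraries had 10 or more counts (19684 genes), and libraries were scaled by TMM (factors 0.976 to 1.03) and compared between genotypes, with no covariate, by edgeR 4.0.16 (quasi-likelihood F-test, Benjamini-Hochberg, threshold 0.05) in R 4.3.3. Normalized counts are counts over relative effective library size. The standard error (SE) divides the size of the log2 fold change by the root of F, and 95% intervals are not adjusted. Libraries of a genotype differed by more than sampling noise (chi-square per degree of freedom 10.2 to 73.3). Alternatives were DESeq2 1.42.0, limma-voom (limma 3.58.1), RLE and upper quartile scaling, other filters, unrounded counts, a covariate for the run of numbers (2 to 5 or 10 to 13), libraries 10 to 13 only, and each library left out. Fits were tested on simulated data. Promoters are RefSeq's (GRCm38.p6), and 36-base words came from GENCODE M21 transcripts of the same build. The labels do not say that pools came from separate litters, so p-values measure the spread between these pools. All 10 genes are named, with listed genes past the threshold, *Gnb5* and *Rgs7bp*; genes and lists were chosen with earlier results of these data known. The cortical excitatory marker list is not reported here.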

Additional observations from a re-analysis of the deposited data

Results flagged for a closer look

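Among the 4 control libraries of each of 24 genes (the 10 RGS genes, the 8 other RGS genes tested, *Gnb5*, *Rgs7bp*, *Kcnj9*, *Gna13*, *Rasd1* and *Lhx6*), 1 library stood apart from the other 3 (Dixon's test, 95% level) in 3 genes; chance marks about 1 in 20 groups. Control library 2 was high for *Rgs12*, at 2329 normalized counts, and for *Rgs13*, at 24.1, and control library 11 was low for *Rgs19*, at 660. Groups of 3 libraries, such as the mutants, are not open to this test. Without control library 2, *Rgs13* kept its call.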

How the results depend on the processing

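*Rgs8*, *Rgs13* and *Kcnj9* kept their direction and call in all 16 alternatives. *Rgs2* ran from 0.627 to 0.848 (log2 fold change) when 1 library was left out and lost its call without mutant library 12 or 13. *Rgs4* gained a call with DESeq2 (0.528), upper quartile scaling (0.554), at least 10 counts in all 7 libraries (0.529), the run covariate (0.483) and libraries 10 to 13 only (0.519). *Rgs10* gained one with the run covariate (0.353) and with libraries 10 to 13 only (0.402). Changes of sign were seen only in uncalled genes: *Rgs14* was at 0.027 in libraries 10 to 13 only, *Rgs16* ran from -0.109 to 0.234 and *Rgs20* from -0.174 to 0.138 when 1 library was left out.

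Called RGS genes of the 10 numbered 4 with the run covariate and 4 in libraries 10 to 13 only, and 1 to 2 when 1 library was left out. Over all genes the calls numbered 954, 1731 with DESeq2, 2205 with the run covariate, 1922 in libraries 10 to 13 only and 302 to 971 when 1 library was left out, the fewest without mutant library 13. The other RGS genes gave 3 calls with DESeq2, with the run covariate and in libraries 10 to 13 only. RGS partners gave 1 with the run covariate (*Ppp1r9b*, lower). G alpha subunits gave 1 (*Gna13*, higher) with DESeq2, RLE and upper quartile scaling, the filter on all 7 libraries, unrounded counts, the run covariate and libraries 10 to 13 only, and 0 to 1 when 1 library was left out. Beta and gamma subunits gave 1 (*Gng13*, lower) in libraries 10 to 13 only. Activators gave 1 (*Rasd1*, lower) with DESeq2, the run covariate and libraries 10 to 13 only. Effectors gave 2 with the run covariate (*Kcnj9* and *Plcb4*, lower) and 3 in libraries 10 to 13 only (with *Plcb3*, higher). The cause of these differences was not tested. No paired analysis was possible because the count columns carry library numbers and not the replicate numbers of the labels. With 4 against 3 pools, the upper 95% bounds of the 8 uncalled genes of the 10 ran from 0.13 (*Rgs14*) to 0.83 (*Rgs4*) on the log2 scale, so a missing call does not exclude changes within these intervals.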
